A study of Mus musculus with 182 samples.

Results

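The cells described here were 26 of 182 single germinal centre B cells, chosen by having the lowest values of Malat1. They were the 14 lowest of cells 1 to 96 and the 12 lowest of cells 97 to 182, and the other 82 and 74 cells (156 in all) served for comparison. Ranking was done within these 2 sets of columns because the deposited values were scaled differently in each. All cells came from spleens of C57BL/6 mice on day 13 after immunisation with the hapten-carrier conjugate NP-KLH in alum with LPS. T cells, CD11c+ cells and IgD+ cells had been depleted on magnetic columns. B220+ Fas+ GL7 high cells were then sorted, with NP binding given in the sample labels but listed only as a stain in the design text. Each cell was captured on a microfluidic chip, where capture was scored by eye, and its cDNA was made with SMARTer chemistry. No animal is named in the labels, so the 182 cells were treated as 1 biological sample. The differences below therefore describe these cells, carry no p-value, and are given within each set.

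Malat1 is a long noncoding RNA that stays in the nucleus, where it gathers at nuclear speckles, the bodies that store splicing factors. Unlike messenger RNAs it ends without a poly(A) tail. RNase P cuts its 3′ end, releases a small tRNA-like RNA, and leaves an A-rich tract that folds into a triple helix. Messenger RNAs of the respiratory chain, ribosome and proteasome, by contrast, are exported and translated in the cytoplasm. Because Malat1 is nuclear and abundant in most cell types, its level in a single cell library is often read as a measure of how nuclear RNA is represented beside cytoplasmic RNA.

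The Malat1 gene lies on chromosome 19, 5795690 to 5802672, minus strand (GRCm38, GENCODE M21), and its transcript of 6983 bases is a single exon. The longest run of A in that transcript is shown because first-strand synthesis in poly(A)-primed libraries can start at such runs, and this RNA has no tail. The window is chr19:5795958-5796059 on the minus strand. The capitals mark the run of 12 A, which starts at base 6674 of the annotated transcript. It is part of the A-rich tract named above, which RNase P leaves at the end of the RNA. The annotated transcript continues for 298 bases after the run and so extends past that end.
Malat1: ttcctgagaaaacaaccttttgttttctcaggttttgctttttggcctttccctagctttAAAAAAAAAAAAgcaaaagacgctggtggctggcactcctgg

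Malat1 itself chose the members, so its values are a description only. In cells 1 to 96 the lowest, median and highest deposited values were 53.5, 234 and 633 in Malat1-low cells, against 649, 2101 and 11148 in the other cells. In cells 97 to 182 they were 32.0, 158 and 501 in Malat1-low cells, against 509, 2075 and 8044 in the other cells. The boundary was not a gap in the values. In the first set the last 2 cells inside it were tied at 633.0 and the first outside had 649.4, and in the second set the values on either side of it were 500.9 and 508.6. By median, Malat1 ranked about 254.5 and 328.5 among all genes of a Malat1-low cell in the 2 sets, against 23.5 and 34 in the other cells. Malat1 was still detected (a value of 1 or more) in all 26 Malat1-low cells.

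The Malat1-low cells also had more genes above their floor, the lowest value a gene takes in a set. In cells 1 to 96 the median was 3843.5 genes (3089 to 4492) in Malat1-low cells, against 2603.5 (1904 to 4170) in the other cells, and all 14 Malat1-low cells lay above the other cells' median. In cells 97 to 182 it was 2909 (1459 to 5146) in Malat1-low cells, against 2125 (980 to 4370) in the other cells, and 10 of 12 lay above the other cells' median. Genes at a value of 1 or more differed little, with medians of 1914.5 and 1726 per Malat1-low cell in the 2 sets, against 1902.5 and 1688 per other cell. Summed values had medians of 370860 and 397699 in Malat1-low cells, against 340209 and 395119 in the other cells. The sequencing depth of each cell is unknown, and the part that the number of genes above the floor plays in the results below was not tested. Cells of a set largely share 1 ladder of values by rank, so a gene can stand higher in a cell only where others stand lower.

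**Figure D1:**
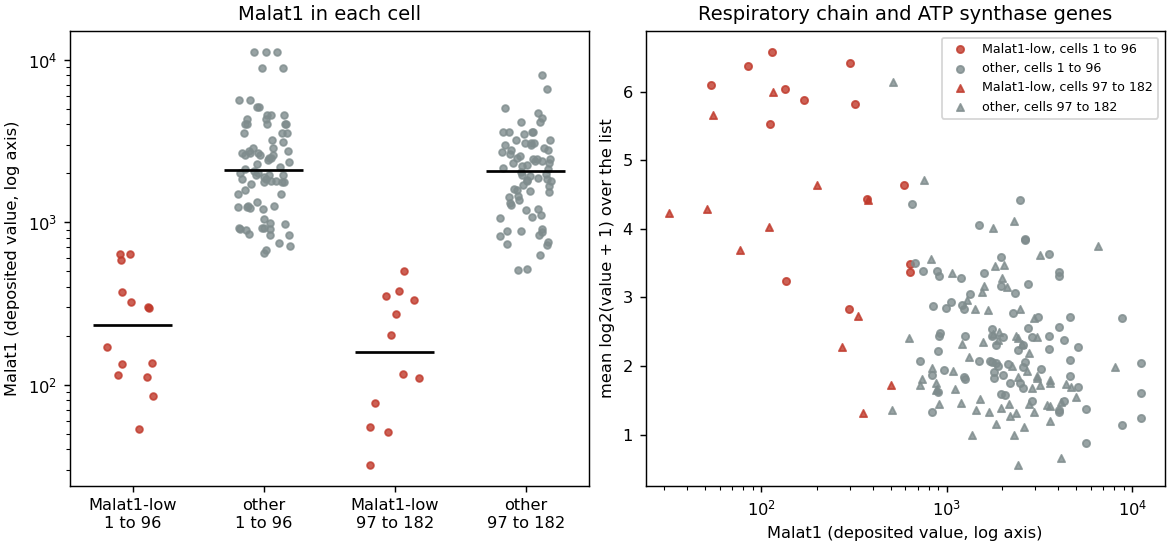
The left panel plots the deposited Malat1 value of each cell (log axis) for Malat1-low cells and other cells of each set, with a line at the median. The right panel plots the mean log2(value + 1) of 56 respiratory chain and ATP synthase genes against Malat1 (log axis), where 10 of 14 Malat1-low cells of cells 1 to 96 lie above every other cell of their set and none of cells 97 to 182 does.

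Among genes other than Malat1, differences past the threshold used here were more often higher than lower in the Malat1-low cells, although over all genes 1259 of 2289 had a lower mean difference and 1030 a higher one. A total of 2289 genes reached a value of 1 or more in 20% or more of the cells of both sets, and 141 of them were lower in Malat1-low cells by 1 or more on the log2(value + 1) scale in both sets, which is 6.16%. A further 297 were higher by the same rule, which is 13.0%. These shares are the background for the gene lists below. By 3 or more in both sets, 27 genes were higher, and 2 were lower, namely Siglecg and Lars2. The median difference over all 2289 genes was −0.20 in cells 1 to 96 and −0.07 in cells 97 to 182. The differences of the 2 sets went the same way for 1677 genes, and their rank correlation across genes was 0.60, where both sets share the choice by Malat1 and genes are not independent replicates. A gene found in Malat1-low cells alone could not enter, since these were 14.6% and 14.0% of each set.

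**Figure D2:**
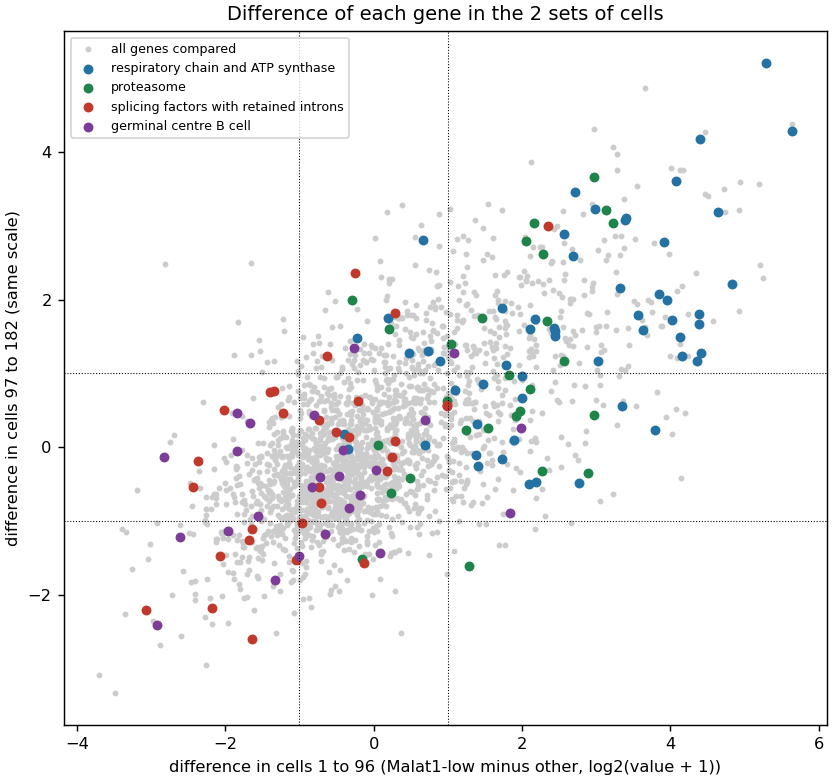
Each point is 1 of 2289 genes, placed by its difference (Malat1-low minus other cells, mean log2(value + 1)) in cells 1 to 96 and in cells 97 to 182, with dotted lines at −1 and 1. Of 56 respiratory chain genes, 33 are among the 297 genes at the upper right that passed in both sets. Of 30 splicing factor genes with retained introns, 13 lie below 0 in both sets.

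Messenger RNAs of the mitochondrial respiratory chain, which passes electrons to oxygen and drives ATP synthesis, stood highest as a list. Of 83 such genes measured, 56 passed the low value filter, and 33 of these 56 were higher in Malat1-low cells in both sets (58.9%, against 13.0% of all genes) and 0 were lower. Their median difference was 2.62 in cells 1 to 96 and 1.54 in cells 97 to 182. ATP synthase, the enzyme that makes ATP, had 11 of 12 kept subunits higher. Complex IV, cytochrome c oxidase, had 6 of 9, complex III had 5 of 8, complex I had 10 of 24 and complex II had 1 of 3. These genes are all nuclear-encoded. Genes of the mitochondrial genome were not analysed here.

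Cox6a1, a subunit of cytochrome c oxidase (chromosome 5, 115345642 to 115348981, minus strand), had the largest difference by the smaller of its values in the 2 sets. In cells 1 to 96 its lowest, median and highest values were 0, 1794 and 6470 in Malat1-low cells, against 0, 8.21 and 6470 in the other cells. In cells 97 to 182 they were 0.36, 1754 and 4459 in Malat1-low cells, against 0.36, 5.11 and 14987 in the other cells. Of 26 Malat1-low cells 24 lay above the median of the other cells of their set (13 of 14 and 11 of 12), although the ranges overlapped completely. The differences of the mean log2(value + 1) were 5.29 (9.75 ± 3.55 in Malat1-low cells, 4.45 ± 4.13 in other cells, SD over cells) and 5.21 (9.22 ± 3.73 in Malat1-low cells, 4.01 ± 4.27 in other cells).

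Atp5e, the epsilon subunit of ATP synthase, differed by 5.63 and 4.29. Its median was 1166 in Malat1-low cells and 0 in other cells of the first set, and 991 in Malat1-low cells and at the floor of 0.19 in other cells of the second. Uqcr10, a small subunit of complex III, had medians of 562 in Malat1-low cells and 3.42 in other cells of the first set, and differed by 4.40 and 4.18. Atp5a1, the alpha subunit of ATP synthase, differed by 4.08 and 3.61. Most Malat1-low cells thus held high values of Cox6a1, Atp5e and Uqcr10, at which the other cells were mostly near the floor, though some other cells held values as high. Slc25a5, the carrier that exchanges ADP and ATP across the inner membrane, differed by 4.46 and 4.26. It belonged to the list of carriers and import factors, of which 6 of 12 kept genes were higher (50%, against 13.0% of all genes). None was lower (against 6.16%). Of 19 kept mitochondrial ribosomal protein genes, 6 were higher (31.6%, against 13.0%) and 0 lower (against 6.16%), with Mrps21 at 5.21 and 2.47. The median over these 19 genes and both sets was 1.11, but −0.07 with a linear term for genes above the floor (3 higher, against 148 of all 2289 genes). In the shared range of that number, described below, it was 0.03 (2 higher, against 191 of all 2289 genes).

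**Figure D3:**
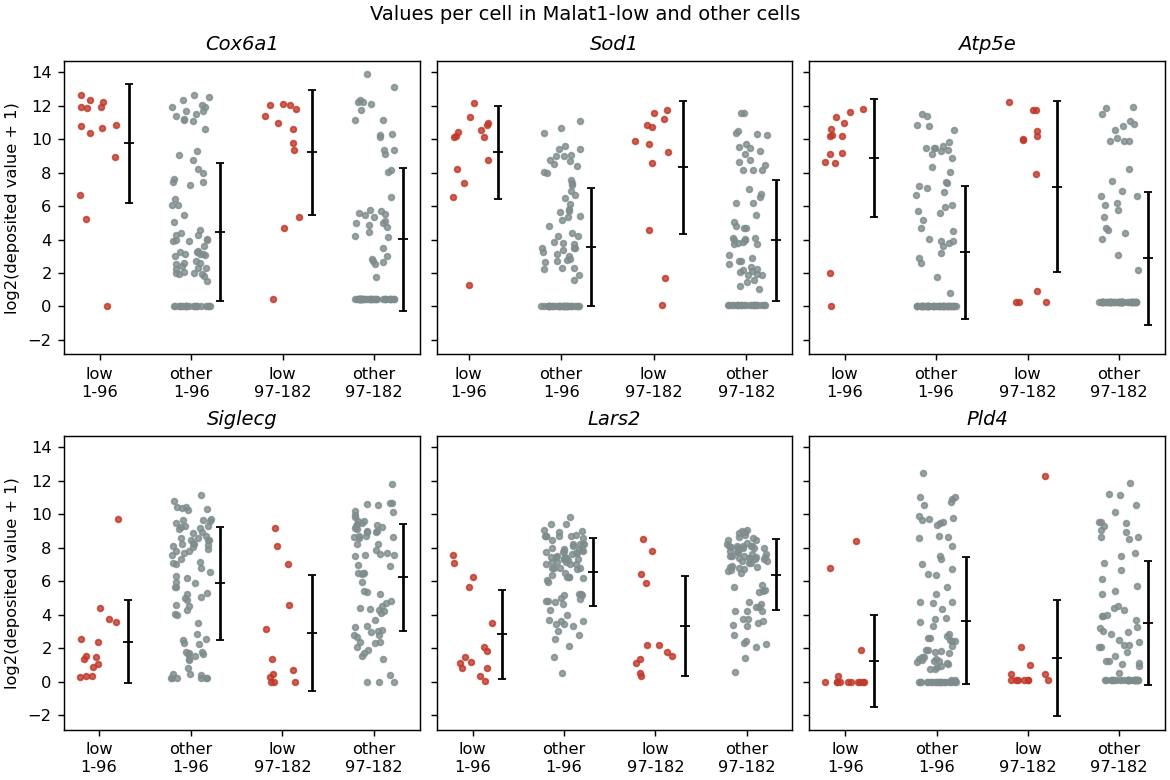
Each panel plots log2(deposited value + 1) of 1 gene in every cell, for Malat1-low ("low") and other cells of cells 1 to 96 and of cells 97 to 182, and the bar gives the mean ± SD over cells. Cox6a1, Sod1 and Atp5e are high in most Malat1-low cells, and Siglecg, Lars2 and Pld4 are near the floor in most of them.

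The level of the respiratory list varied among the members. Averaged over its 56 genes as log2(value + 1), it was 5.05 ± 1.35 in Malat1-low cells and 2.41 ± 0.78 in the other cells of the first set, with all 14 Malat1-low cells above the other cells' median. In the second set it was 3.75 ± 1.47 in Malat1-low cells and 2.17 ± 0.98 in the other cells, and 10 of 12 lay above the other cells' median. The members ran over 2.83 to 6.58 in the first set and over 1.31 to 6.00 in the second. The 14 cells next in rank averaged 2.63 ± 0.87 and the 68 remaining cells 2.36 ± 0.76 in the first set, while the next 12 averaged 2.52 ± 1.51 and the remaining 62 cells 2.10 ± 0.85 in the second. The list level had rank correlations of 0.68 and 0.58 with the number of genes above the floor over all cells of each set, where both measures come from the same libraries. With a linear term for that number the list's median difference over both sets was 1.12, against 2.01 without it. Then 18 of its 56 genes were higher, against 148 of all 2289 genes, and 86 of all genes were lower. These 2 counts are the background for every count given with the linear term.

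Other short and abundant cytoplasmic messenger RNAs were higher as well. Of 30 kept genes in a list of such RNAs, 14 were higher in both sets (46.7%, against 13.0% of all genes) and 1 was lower (3.33%, against 6.16%). The latter was Eef2, the translocation factor of translation, lower by 1.04 and 1.03. Examples that were higher are Fth1 (3.23 and 4.07), the heavy chain of the iron store ferritin, Tubb5 (3.38 and 3.36), a beta tubulin, and Eef1a1 (2.39 and 2.49), which brings aminoacyl-tRNA to the ribosome. Of 27 kept proteasome genes, 10 were higher (37.0%, against 13.0% of all genes) and 0 lower (against 6.16%). Among the higher ones were Psma6 (2.96 and 3.66), Psmb4 (3.14 and 3.21) and Psmb2 (3.23 and 3.04), all subunits of the 20S core. The proteasome list averaged 3.91 ± 1.07 in Malat1-low cells and 2.25 ± 0.67 in other cells of the first set, and 3.04 ± 1.52 in Malat1-low cells and 2.02 ± 0.76 in other cells of the second. With the linear term for genes above the floor, 5 of 30 genes of the cytoplasmic list and 6 of 27 of the proteasome list were higher. Of all 2289 genes 148 were higher under that setting.

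The rest of the 15 highest genes had varied roles. Sod1, cytosolic superoxide dismutase (chromosome 16, 90220754 to 90226329, plus strand), had lowest, median and highest values of 1.42, 1160 and 4556 in Malat1-low cells, against 0, 7.52 and 2151 in the other cells of the first set. In the second set they were 0.07, 897 and 3415 in Malat1-low cells, against 0.07, 6.86 and 3077 in the other cells. Most Malat1-low cells, 13 of 14 and 10 of 12, lay above the other cells' median, and the ranges overlapped. Gpx1, glutathione peroxidase, differed by 4.46 and 3.44. Hint1, a small purine nucleotide hydrolase, differed by 3.65 and 4.86, and was detected in 20 of 26 Malat1-low cells, against 47 of 156 other cells. Eif1ax, an initiation factor of translation (4.01 and 3.78), was detected in 23 of 26 Malat1-low cells, against 39 of 156 other cells. Others of the 15 were Ywhae (4.17 and 3.75), which encodes a 14-3-3 adaptor, Shfm1, a small proteasome and BRCA2 partner, Ptges3, a co-chaperone of Hsp90, and the dividing-cell genes Cks1b and Stmn1.

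Cytosolic ribosomal protein genes were split, unlike the respiratory list. Of 51 kept genes, 17 were higher (33.3%, against 13.0% of all genes) and 6 were lower (11.8%, against 6.16%). Among the higher genes were Rpl29 (4.34 and 2.36), Rpl7 (3.98 and 2.62) and Rps9 (3.13 and 2.54). The lower genes included Rpsa (−2.18 and −2.39), Fau, Rpl21, Rpl35a and Rpl13. Rpsa, the laminin-receptor ribosomal protein, had medians of 28.4 and 6.88 in Malat1-low cells, against 174 and 147 in the other cells of the 2 sets. The list's median was 0.63 and 0.07. With the linear term for genes above the floor, 4 of 51 genes were higher and 3 lower, against 148 and 86 of all 2289 genes. Rpl32, higher by 1.25 and 1.02, then had a negative mean difference. Ribosomal protein genes have many processed pseudogenes, and 39.7% of the 75-base stretches of the Rpsa transcript also occur in annotated transcripts of other genes. Reads of Rpsa could therefore be shared out by the aligner, and whether this bears on its difference was not tested.

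Nuclear RNAs other than Malat1 gave little to compare. Of the named nuclear long noncoding RNAs, 14 besides Malat1 were in the table, 12 were found in any cell, and 2 passed the filter. Kcnq1ot1, an imprinted antisense RNA that silences neighbouring genes, was lower by 2.08 in the first set and by 0.55 in the second. It was detected in 7 of 26 Malat1-low cells (26.9%), against 99 of 156 other cells (63.5%). No Malat1-low cell of the first set lay above the other cells' median, but 4 of 12 did in the second. Tug1, a long noncoding RNA with both nuclear and cytoplasmic pools, went in opposite directions, at −0.82 and 1.40. Neat1, which builds paraspeckles and neighbours Malat1 on chromosome 19, was detected in 2 of 26 Malat1-low cells (7.69%) and 28 of 156 other cells (17.9%), too few to pass the filter. Xist, the RNA that coats the inactive X chromosome, was detected in 6 of 26 Malat1-low cells (23.1%) and 43 of 156 other cells (27.6%), and differed by −0.85 and −0.04.

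Rpph1, the RNA of RNase P, was the single kept gene of 40 small nuclear and nucleolar RNAs. It was lower by 2.43 and 1.17, with medians of 0.49 and 0.29 in Malat1-low cells, against 25.3 and 31.3 in the other cells of the 2 sets. Its highest Malat1-low values, 6487 and 4769, nevertheless overlapped most other cells. The median of the 3 kept nuclear RNAs minus that of the cytoplasmic list was −2.76 over both sets, a value that rests on 3 genes. Rn45s, the ribosomal RNA precursor, added after its values were seen, had medians of 8769 and 6554 in Malat1-low cells, against 21956 and 18758 in the other cells, and 1 Malat1-low cell of each set lay above the other cells' median. Snhg5, a host RNA of small nucleolar RNAs, was higher by 1.66 and 1.12.

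Messenger RNAs of many splicing factors are often kept in the nucleus with retained introns. Of 30 kept genes of such a list, 7 were lower (23.3%, against 6.16% of all genes) and 1 was higher, with median differences of −0.74 and −0.02. Son, a scaffold protein of nuclear speckles (chromosome 16, 91647506 to 91679221, plus strand), was lower by 3.07 and 2.20. Its lowest, median and highest values were 1.05, 7.25 and 322 in Malat1-low cells, against 1.23, 98.8 and 1066 in the other cells of the first set, and 0.71, 14.0 and 201 in Malat1-low cells, against 1.00, 88.2 and 1049 in the other cells of the second. Of 26 Malat1-low cells 23 lay below the other cells' median, within an overlapping range. Pnisr, a speckle-associated SR-related protein, differed by −2.18 in both sets, Prpf38b by −1.64 and −2.59, and Rbm5, Rbm25, Srsf11 and Ogt, the last encoding the enzyme that adds O-GlcNAc to proteins, were also lower. Srsf2, an SR splicing factor, was the higher one, at 2.34 and 3.00.

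Genes for the proteins of nuclear speckles and paraspeckles did not share a direction, with 11.1% lower and 22.2% higher, against 6.16% and 13.0% of all genes. Of 18 kept genes, Son and Srrm2 (−3.33 and −1.16), both very long speckle scaffolds, were lower, while Srsf2, Hnrnpc (2.05 and 2.26), Hnrnpu (2.07 and 2.32) and Hnrnpk (1.08 and 2.66), the last 3 encoding binders of nuclear RNA, were higher.

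**Figure D4:**
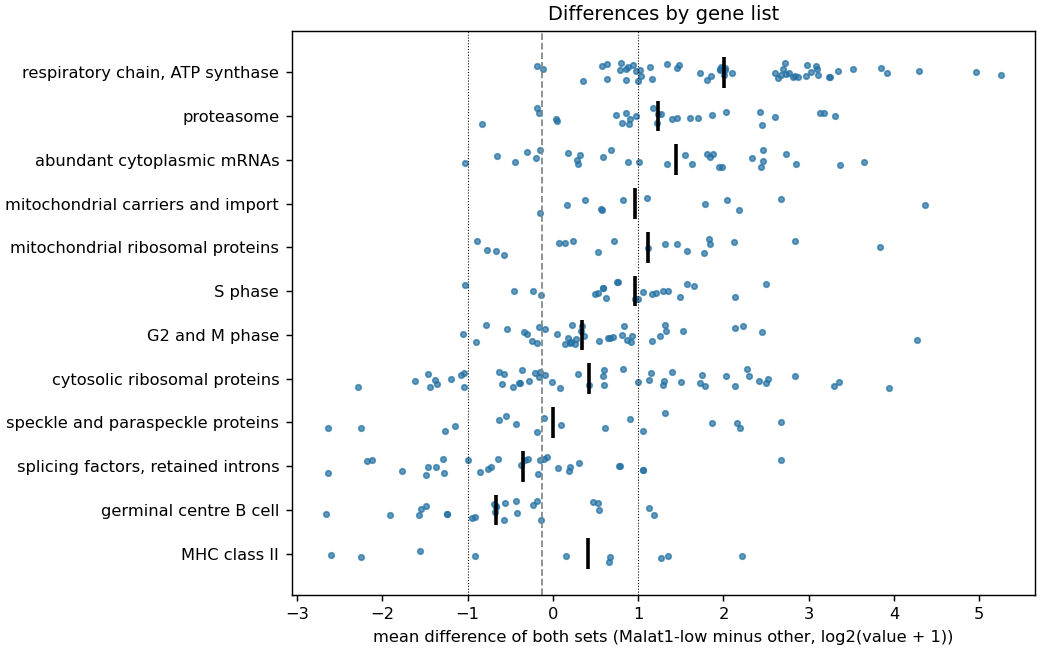
Each point is a kept gene of a list, placed by the mean of its differences in the 2 sets (Malat1-low minus other cells, mean log2(value + 1)), with a thick line at the list's median, a dashed line at the median of all genes and dotted lines at −1 and 1. The respiratory list has its median at 2.01 and the germinal centre B cell and splicing lists have theirs below the median of all genes.

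The 2 genes lower by more than 3 in both sets were Siglecg and Lars2. Siglecg (chromosome 7, 43408204 to 43418358, plus strand) encodes an inhibitory sialic acid receptor of B cells. Its lowest, median and highest values were 0.20, 1.82 and 824 in Malat1-low cells, against 0.14, 101 and 2254 in the other cells of the first set, and 0, 1.07 and 571 in Malat1-low cells, against 0, 104 and 3540 in the other cells of the second. It was detected in 16 of 26 Malat1-low cells (61.5%, exact 95% interval 40.6 to 79.8), against 142 of 156 other cells (91.0%, 85.4 to 95.0). Lars2, the mitochondrial leucyl-tRNA synthetase, had medians of 2.13 and 2.96 in Malat1-low cells, against 138 and 155 in the other cells of the 2 sets, and 23 of 26 Malat1-low cells lay below the other cells' median. It was lower by 3.70 and 3.08, whereas no respiratory chain gene was lower. These intervals cover counting error over cells only. Siglecg was chosen by its difference in these same cells, so the distance between its intervals is no separate evidence. The same holds for Hip1r and Pld4 below.

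The rest of the 15 lowest genes had varied roles. Cd22, an inhibitory coreceptor of the B cell receptor, was lower by 2.92 and 2.41, with medians of 17.2 and 3.49 in Malat1-low cells, against 122 and 33.9 in the other cells. Pou2f2, which encodes the transcription factor Oct2, was lower by 2.88 and 2.68, and Unc93b1, which carries nucleic acid-sensing Toll-like receptors to endosomes, by 3.35 and 2.26. H2-DMb1, a chain of the peptide editor of MHC class II, was lower by 2.26 and 2.95. Hip1r, a clathrin and actin adaptor, was detected in 1 of 26 Malat1-low cells (3.85%, 0.10 to 19.6), against 87 of 156 other cells (55.8%, 47.6 to 63.7). Pld4, an endolysosomal exonuclease, was detected in 5 of 26 Malat1-low cells (19.2%, 6.55 to 39.4), against 102 of 156 other cells (65.4%, 57.4 to 72.8). Yet 1 Malat1-low cell held 5010. Low Pld4 was not particular to the Malat1-low cells. Its mean log2(value + 1) was 1.24 and 1.41 in them, and 1.44 and 1.29 in the cells next in Malat1 rank. The cells ranked after those averaged 4.101 and 3.898. Siglecg and Lars2 stood higher in the cells next in rank than in Malat1-low cells in both sets. The remaining genes were Atp2a3, a calcium pump of the endoplasmic reticulum (−2.97 and −2.35), Itsn2, an endocytic scaffold (−2.21 and −2.04), Slc44a2, a choline transporter (−2.04 and −2.02), and Tmem234, Rpsa, Pnisr and Son.

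B cell transcripts were found in the Malat1-low cells, with several genes lower. The Malat1-low cells had a median of 16 of 26 germinal centre B cell genes detected, against 18 in the other cells. Of these 26 genes 16 were detected in over 50% of Malat1-low cells, against 21 in over 50% of other cells. Cd79b, a signalling chain of the B cell receptor, was detected in 25 of 26 Malat1-low cells and 155 of 156 other cells. Of 25 kept genes of that list 20 had a mean difference below 0 and 5 were lower (20.0%, against 6.16% of all genes), namely Cd22, Ptprc (CD45), Mef2c, Basp1 and Mybl1, and 1, Rgs13, a regulator of chemokine receptor signalling, was higher (1.08 and 1.28). The list averaged 3.58 ± 1.08 in Malat1-low cells and 4.32 ± 0.66 in other cells of the first set, and 3.39 ± 0.77 in Malat1-low cells and 3.84 ± 0.68 in other cells of the second. With the linear term for genes above the floor, 1 of 25 genes of the list was lower, against 86 of all 2289 genes. Bcl6, the master regulator of the germinal centre, differed by −1.56 and −0.93. Of 10 MHC class II genes, H2-DMb1, H2-Ob and Ciita were lower (30%, against 6.16% of all genes). H2-Aa, at 1.61 and 2.83, was higher (10%, against 13.0%). In the first set the median over these genes was 0.11 while the mean level differed by −0.49.

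Of 5 kept light zone genes 0 passed (against 6.16% lower and 13.0% higher of all genes), with medians of −1.44 and −0.08. Nfkbia, the inhibitor of NF-kB, stood at −2.82 and 2.48. In the second set the mean level of these 5 genes differed by 0.30, opposite to their median. Of 10 kept immediate early genes 3 were lower (30.0%, against 6.16% of all genes) and 0 higher, with medians of −1.34 and −0.51 and 9 of 10 below 0 by mean difference. The lower ones were Btg2 (−2.03 and −1.59) and Btg1 (−1.48 and −2.01), which restrain proliferation, and Jun. With the linear term for genes above the floor 1 of 10 was lower, against 86 of all 2289 genes. Of 12 kept dark zone genes, Aurkb and Rgs13 were higher (16.7%, against 13.0% of all genes) and Mybl1 was lower (8.33%, against 6.16%). In the first set the median of the 12 genes was −0.09 while their mean level differed by 0.41.

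Of 23 kept S phase genes 5 were higher (21.7%, against 13.0% of all genes) and 0 lower, namely Rrm2, the nucleotide reductase subunit (1.97 and 2.31), Rfc4, Rfc2, Mcm6 and Tipin. With the linear term for genes above the floor 6 of 23 were higher and 1 lower, against 148 and 86 of all 2289 genes. Of 39 kept G2 and M phase genes 6 were higher (15.4%, near the 13.0% of all genes) and 0 lower, with median differences of 0.41 and 0.49. The list's median changed sign between settings, for a reason that was not tested. Over both sets it was 0.34, but −0.42 with the linear term for genes above the floor (2 higher, 2 lower). In the cells of the shared range described below it was −0.80 (3 higher, 2 lower, against 191 and 88 of all 2289 genes). Cks1b, a cofactor of cyclin-dependent kinases, had the largest of these, at 4.94 and 3.59, and was detected in 19 of 26 Malat1-low cells, against 31 of 156 other cells. Stmn1, a destabiliser of microtubules, was higher by 4.72 and 3.50 and detected in 22 of 26 Malat1-low cells, against 62 of 156 other cells. Both are also among the shorter transcripts considered next.

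Single markers of other cell types were common in both groups. At least 1 T cell gene was detected in 18 of 26 Malat1-low cells and 91 of 156 other cells, and at least 1 myeloid gene in 15 of 26 Malat1-low cells and 72 of 156 other cells. At least 2 T cell genes were detected in 2 of 26 Malat1-low cells (7.69%) and 12 of 156 other cells (7.69%), and at least 2 myeloid genes in 2 of 26 Malat1-low cells (7.69%) and 16 of 156 other cells (10.3%). At least 2 plasma cell genes, several of which B cells also express, were detected in 23 of 26 Malat1-low cells (88.5%) and 133 of 156 other cells (85.3%). At least 1 stromal gene was detected in 8 of 26 Malat1-low cells and 84 of 156 other cells, and at least 2 in 0 and 14 (8.97%). That list includes Cr2, the complement receptor CD21, its single kept gene, which was lower by 1.56 and 1.78. The part of Cr2 in these counts was not tested, so they are not a measure of stromal material. Of 4 NK cell genes none was detected in a Malat1-low cell. Summed over 11 myeloid genes, values had a median of 6.87 (0.24 to 3360) in Malat1-low cells and 0.25 (0.24 to 4554) in the other cells, and 3 of these genes were detected in no Malat1-low cell. Cst3, which encodes cystatin C, was the single myeloid gene to pass the filter and was higher by 1.20 and 2.86. Summed over 9 T cell genes, values had a median of 59.0 (0.04 to 3565) in Malat1-low cells and 1.88 (0.04 to 2836) in the other cells, and 6 of the 9 were detected in no Malat1-low cell. Mzb1, a plasma cell and B cell chaperone, was higher by 1.79 and 2.37, as 1 of 4 kept plasma cell genes (25%, against 13.0% of all genes). Their part in the results was not tested. A heavy chain constant gene was called dominant where it held over 50% of their summed value and this sum was at least 10. Of 22 Malat1-low cells with such a sum, Ighm, the heavy chain of IgM, was dominant in 19 (86.4%, exact interval 65.1 to 97.1), against 104 of 147 other cells (70.7%, 62.7 to 78.0). The intervals overlap, but they cover counting error over cells only, so this is a description and no test.

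Transcript length ordered the differences over all genes. Of the 2289 genes, 2276 (99.4%) matched an annotated gene and 2236 were protein-coding. The median of the mean difference over both sets was 1.44 for 16 transcripts under 500 bases, 1.33 for 173 of 500 to under 1000 bases, and 0.57 for 511 of 1000 to under 2000 bases. It was −0.12 for 795 of 2000 to under 4000 bases, −0.46 for 590 of 4000 to under 8000 bases, and −0.73 for 151 of 8000 bases or more. The order of the classes was the same within each set. Of 189 transcripts under 1000 bases, 85 (45.0%) were higher and 6 lower, whereas of 741 over 4000 bases 12 were higher and 75 (10.1%) lower.

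**Figure D5:**
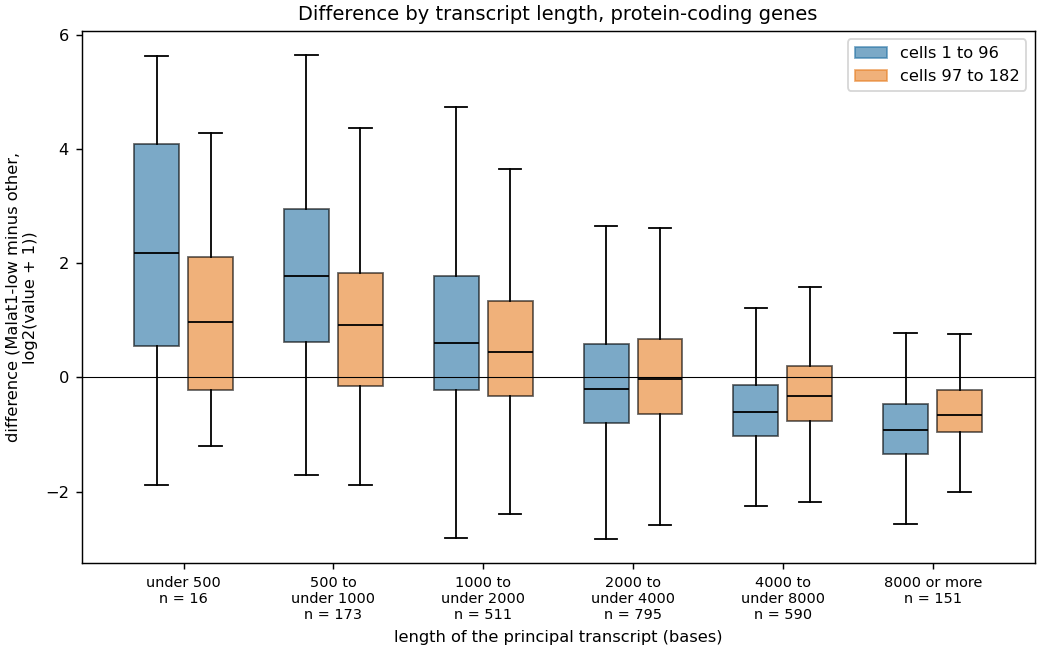
Boxes show the difference (Malat1-low minus other cells, mean log2(value + 1)) of protein-coding genes by length of the principal transcript in bases, in cells 1 to 96 and in cells 97 to 182, with the median, the quartiles and whiskers to 1.5 times the interquartile range. The median decreases from the shortest to the longest class in both sets.

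Outside the respiratory, ribosomal, proteasome and cytoplasmic lists the median was 1.12 over 105 genes under 1000 bases and −0.52 over 738 genes over 4000 bases. With genes split into 4 equal parts by mean level, the medians in the lowest part were 0.59 for short and −0.34 for long transcripts, and in the highest part they were 1.95 and −1.02. The higher genes had a median transcript of 1420 bases with 6 exons, the lower genes 4226.5 bases with 19 exons, and all coding genes 2902.5 bases with 10.5 exons. Coding length ran the same way, with medians of 603 bases for higher genes, 2578.5 for lower genes and 1389 for all. Across genes, the rank correlation of length with the difference was −0.53 and −0.37 in the 2 sets. GC content hardly differed, with medians of 50.5% for higher genes, 50.3% for lower genes and 49.5% for all. An internal run of at least 12 A occurred in 11 of 138 lower coding genes (7.97%), in 11 of 289 higher ones (3.81%) and in 219 of all 2236 (9.79%).

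Seen cell by cell, long coding genes averaged 1.35 ± 0.37 in Malat1-low cells and 2.00 ± 0.22 in other cells of the first set, and 1.46 ± 0.39 in Malat1-low cells and 1.78 ± 0.21 in other cells of the second. All 14 and 10 of 12 Malat1-low cells were below the other cells' median. Short coding genes averaged 4.79 ± 0.86 in Malat1-low cells and 2.91 ± 0.60 in other cells of the first set, and 3.56 ± 1.28 in Malat1-low cells and 2.61 ± 0.80 in other cells of the second. All 14 Malat1-low cells of the first set but 8 of 12 of the second were above the other cells' median, and 3 of the second lay below the other cells' lower quartile. Between long and short transcripts the difference of medians was −1.85. It was −0.81 with a linear term for genes above the floor. It was −0.97 in 21 Malat1-low and 79 other cells that shared a range of that number, a choice made after seeing the data. In the first set this range held 10 Malat1-low and only 9 other cells. In the second it held 11 and 70, whose median numbers of genes above the floor still differed (2857 and 2164.5).

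The genes whose values followed Malat1 most closely over cells were, by the weaker of the rank correlations in the 2 sets (n = 96 and 86 cells), Pld4 (0.41 and 0.39), Son (0.44 and 0.33), Siglecg (0.32 and 0.35), Cr2, the complement receptor CD21 (0.31 and 0.31), Il21r, the receptor of the follicular helper cytokine IL-21 (0.30 and 0.31), and Chd6, a chromatin remodeller (0.32 and 0.29). Without the Malat1-low cells the values were 0.30 and 0.36 for Pld4 and 0.15 and 0.22 for Siglecg. The genes that ran most opposite were Ptma, the acidic nuclear protein prothymosin alpha (−0.43 and −0.45), Cox6a1 (−0.39 and −0.44), Set, a histone chaperone (−0.42 and −0.39), Psmb3 (−0.37 and −0.43), Tmem258, an oligosaccharyltransferase subunit (−0.37 and −0.43), and Snx1, a sorting nexin (−0.39 and −0.37). Set had medians of 496 and 977 in Malat1-low cells, against 11.0 and 12.8 in the other cells, and 23 of 26 Malat1-low cells lay above the other cells' median. Cells of a set share a ladder of values, so these correlations are weak descriptions.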

How the data were processed

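The authors' deposited values are 1 linear normalized signal for each gene in each cell. TopHat2 2.0, Cufflinks 2.2, Cuffdiff and mm10 appear in the submitters' processing notes. How the signal was normalized is not stated in the sources used. No count model suits such values, and sequencing depth is unknown. Of 17035 rows, 17034 symbols were used, and 20 symbols read as dates. The 2 column sets were found from the values. The labels do not name them, and their origin is unknown.

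Differences were means of log2(value + 1) in Malat1-low minus other cells, within each set. Genes were kept if detected (1 or more) in 20% of cells of each set, and called at 1 or more in size, same sign, in both. No test was run, because 1 biological sample exists. Shares have exact Clopper-Pearson 95% intervals.

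Named genes were Malat1, nuclear noncoding RNAs, up to 4 highest-level kept members per list (3 for other cell types), the 15 lowest and 15 highest differences, and 6 genes most and least like Malat1. Other members past the threshold, or cited beside them, were chosen after their values were seen. Some genes that these rules name are not reported here. The members and the 31 lists were chosen with earlier results of these data known. Lengths came from GENCODE M21, taking the APPRIS principal transcript. The transcript of median length had been used first, and the change was made after its result had been seen. Overlap of transcripts was counted over stretches of 75 bases. Computations used Python 3.11.15, numpy 2.4.6, pandas 2.3.3 and scipy 1.17.1, and were tested on simulated data. Of the alternatives, the pseudocount, the filter, the number of cells, the sets, genes above the floor and the transcript chosen were varied.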

Additional observations from a re-analysis of the deposited data

How the results depend on the processing

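Each main result kept its direction under the alternatives run, except the ribosomal protein median, but sizes moved. The medians of the mitochondrial ribosomal and the G2 and M phase lists also turned direction with the linear term (values in the text). So did those of the MHC class II (0.41 to −0.28), dark zone (−0.12 to 0.23) and small nucleolar RNA host lists (0.11 to −0.15). The speckle and paraspeckle protein list went from −0.00085 to 0.24. The 141 lower and 297 higher genes became 260 lower with a pseudocount of 0.1, 29 and 152 with 10, 81 and 104 with detection in 50% of cells, 324 lower with the 7 and 6 lowest cells, and 57 and 157 with the 28 and 24 lowest. They became 86 and 148 with a linear term for genes above the floor, and 88 and 191 in the shared range of that number. That range was chosen after seeing the data and held only 9 other cells in the first set. One set alone gave 430 and 506 (cells 1 to 96) or 295 and 476 (cells 97 to 182), by construction more than both together. Nuclear minus cytoplasmic (−2.76) was −1.08 with no filter and −0.85 with the linear term. The respiratory median (2.01) was 2.96 and 1.24 with pseudocounts of 0.1 and 10, 2.83 with the 50% filter, 2.91 and 1.15 with fewer and more low cells, and 1.12 with the linear term. The ribosomal protein median (0.43) was −4.66e-05 with no filter and −0.024 with the linear term. Long minus short (−1.85) was −2.82 with a pseudocount of 0.1, −0.32 with no filter, −2.89 with the 7 and 6 lowest cells, −0.81 with the linear term and −0.97 in the shared range. With other choices of transcript it was −1.19 (median length) and −2.06 (longest), both added after seeing the data. The difference of 1240 genes above the floor in cells 1 to 96 was 526.5 with the 28 and 24 lowest cells. Rpl32 (−0.62) and Mrpl18 (−0.11) reversed with the linear term, and of 1464 values of 122 named genes 391 moved. The 1464 include the filter and single-set settings, which leave a gene's within-set differences as they are, so no value could move there. The causes of these moves were not tested. Without the cell of the highest sum (an added alternative), no named gene moved. Depth is unknown, so low values cannot be told from absence.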

Other observations

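Genes that split the Malat1-low cells from the others by detection alone were few. By a rule added after the values were seen (at least 50% of the cells of one side and at most 15% of the cells of the other in each set), 4 of 17034 genes passed. Ndufa5 and Ndufa8, both accessory subunits of complex I, were below the low value filter. Ndufa8 was detected in 9 of 14 and 7 of 12 Malat1-low cells, against 12 of 82 and 9 of 74 other cells, and Ndufa5 in 8 and 6 Malat1-low cells, against 11 and 9 other cells. Agpat1, an enzyme of phospholipid synthesis, was detected in 1 and 1 Malat1-low cells, against 46 and 38 other cells, and Hip1r in 1 and 0 Malat1-low cells, against 49 and 38 other cells.

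Trp53, which encodes p53, was higher in Malat1-low cells by 3.42 and 1.62, with medians of 112 and 36.7 in Malat1-low cells, against 1.29 and 2.61 in the other cells of the 2 sets. It was the 1 higher gene among 3 kept genes of the p53 and cell death list (33.3%, against 13.0% of all genes). The median of those 3 was −0.13 and −0.57 in the 2 sets while their mean level differed by 0.82 and 0.13.

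Stretches of 75 bases shared with transcripts of other genes made up over 10% of the transcript in 75 of 289 higher coding genes (26.0%), in 25 of 138 lower ones (18.1%) and in 423 of all 2234 with such a stretch (18.9%). Among the 15 highest genes the shared part was 30.5% for Stmn1, 27.9% for Slc25a5 and 12.2% for Sod1, and it was 0% for Atp5e, Uqcr10, Hint1 and Gpx1.

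Lists of which few genes passed the low value filter gave the following counts, beside 6.16% lower and 13.0% higher over all genes. Of 7 replication-dependent histone genes 2 were lower (28.6%, Hist1h1e and Hist2h2bb) and 1 was higher (14.3%, Hist1h4d). In the first set the median of the 7 was −0.02 while their mean level differed by 0.22. Of 7 heat shock genes 1 was lower (14.3%, Hspa4) and 2 were higher (28.6%, Hsp90ab1 and Hspe1). Of 3 interferon response genes and 3 immunoglobulin genes none passed in either direction. Of 57 microRNA rows only Mir682 was kept, with differences of 2.47 and 2.99. In cells 1 to 96 its median was the highest value of the set, 35649, in Malat1-low cells as in the other cells, so 0 of 14 Malat1-low cells lay above the other cells' median. Of the stromal list only Cr2 was kept, which was lower by 1.56 and 1.78. Of the erythroid and NK cell lists no gene was kept.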
